A study of Mus musculus with 8 samples.

Results

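Granzyme A (Gzma), granzyme B (Gzmb), granzyme K (Gzmk), perforin (Prf1) and Nkg7 were followed across the cells of mouse hepatoma tumours. The 5 genes were chosen by symbol, for their place in the cytotoxic granule, and are 5 of the 2000 genes of the table. All 5 had rows. The study profiled single cells of dissociated tumours of Hepa1-6, a mouse hepatoma line, by droplet 3′ sequencing on the DNBelab C4 platform. Its 2 factors are Soat1 editing of the tumour cells (the gene's product stores cholesterol as esters) and treatment with antibody to PD-1, an inhibitory receptor of T cells. The labels give 4 groups: unedited tumours with PBS, unedited tumours with the antibody, edited tumours with PBS and edited tumours with the antibody. Both agents went into the peritoneum, and each group has a cDNA entry and an oligo entry, counted here as 1 sample. Entry titles call the edited tumours knockouts, whereas the genotype field calls them knockdowns. Strain, sex and age of the hosts, the number of animals behind a group, and whether the edited line is 1 clone are not given in the sources used here.

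Cytotoxic lymphocytes store granzymes and perforin in secretory granules that are released toward a target cell. Perforin forms pores in the target membrane, and the granzymes, which are serine proteases, then enter and cleave their substrates. Granzyme B cleaves after aspartate and activates caspases, while granzymes A and K cleave after basic residues. Nkg7 is a granule membrane protein that takes part in degranulation. Activated CD8 T cells and NK cells are the classic sources, and activated regulatory T cells are also known to make granzyme B.

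The 5 genes lie at 4 places in the mouse genome (RefSeq annotation on build GRCm38.p6, used for gene positions, while the build behind the table is not certain). Gzma and Gzmk are neighbours on the minus strand of chromosome 13, at chr13:113093824-113100981 and chr13:113171630-113180965. They are separated by 70.6 kb that holds 1 annotated gene, 1700084D21Rik, which is not protein-coding. Gzmb is on the minus strand at chr14:56258836-56262334, Prf1 on the plus strand at chr10:61297751-61304684, and Nkg7 on the plus strand at chr7:43437138-43438246. The bases before the annotated gene start are shown for Gzmb and Prf1, both at least 2-fold higher in noncycling CD8 T cells with Havcr2 as described below, and for Gzma, which was not. Capitals mark matches, on either strand, to the Runx core TGTGGT, the AP-1 site TGANTCA, the ETS core AGGAAG and the cyclic AMP response element core TGACGT. Each is 1 run from 5′ to 3′ on the strand of its gene, at chr13:113100982-113101231 for Gzma, chr14:56262335-56262584 for Gzmb and chr10:61297586-61297750 for Prf1, and ends 1 base before the gene.
Gzma: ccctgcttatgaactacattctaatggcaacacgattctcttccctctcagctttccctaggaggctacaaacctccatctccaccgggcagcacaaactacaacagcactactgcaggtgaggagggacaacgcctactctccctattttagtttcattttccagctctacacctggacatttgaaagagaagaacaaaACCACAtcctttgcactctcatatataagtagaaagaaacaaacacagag
Gzmb: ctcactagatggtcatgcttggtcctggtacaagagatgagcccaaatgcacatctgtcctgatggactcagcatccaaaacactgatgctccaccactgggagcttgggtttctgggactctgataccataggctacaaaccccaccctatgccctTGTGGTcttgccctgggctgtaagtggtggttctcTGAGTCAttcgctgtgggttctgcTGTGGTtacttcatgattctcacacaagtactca
Prf1: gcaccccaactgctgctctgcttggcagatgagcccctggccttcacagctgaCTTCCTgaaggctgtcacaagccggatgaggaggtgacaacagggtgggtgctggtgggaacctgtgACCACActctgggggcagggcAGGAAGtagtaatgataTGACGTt
The Runx core was found before 4 of the 5 genes (Gzma, Gzmb, Prf1 and Nkg7). It was in 14.0% of the 32851 mouse promoters of the same RefSeq set, each searched over 250 bases. Only 165 bases were searched before Prf1, against 250 before each other member. In the Gzmb sequence the Runx core occurs at 93 to 88 and at 34 to 29 bases before the start, with the AP-1 site between them at 58 to 52 bases. That AP-1 site is in 6.75% of promoters. Prf1 had the ETS core (29.5% of promoters) at both 112 to 107 and 24 to 19 bases, the Runx core at 45 to 40 and the cyclic AMP core (6.47% of promoters) at 7 to 2 bases. The T-box sequence GGTGTGA, in 3.33% of promoters, was also searched and was found before Gzmk and Nkg7. No match overlapped another. A match describes the letters only, and no binding was measured.

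All cells were deposited in 1 table of 53528 columns. The cell names end in 1 of 6 set numbers, and nothing ties a set to a group, so neither the editing nor the antibody could be compared and the sets are reported as unassigned samples. The sets held 7569 to 11813 cells. UMI counts (single transcript molecules) could be recovered for set 1, whose 9370 cells had 1001 to 261833 UMIs each, with a median of 11098.5. Of the 22421 cell names found once the set number is removed, 12741 occur in more than 1 set. These names are running numbers and not barcodes, so shared barcodes could not be counted. Set 1 is 1 sample: values below carry 95% intervals for counting error only, no p-value was computed, and cells are not replicates.

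Cells were gated by marker genes, none of which is among the 5. Set 1 gave 972 CD8 T cells with a median depth of 5462 UMIs, 35 regulatory T cells (4560 UMIs), 49 CD4 T cells (3243 UMIs), 35 NK cells (2885 UMIs) and 389 myeloid cells (2745 UMIs). A background class of 4596 hepatoma cells (19813.5 UMIs) gives the level counted in cells that should lack these genes. The source of those UMIs was not tested, and the gate caps T, NK and myeloid list UMIs at 0.1% of a hepatoma cell's UMIs. The gated classes carried their defining genes: regulatory T cells had 71 Foxp3 and 635 Ctla4 UMIs, NK cells had 34 Ncr1, 86 Klrb1c and 86 Klra4 UMIs, and myeloid cells had 5771 C1qa UMIs. NK cells had 0 Cd3g, Cd8a and Cd8b1 UMIs by the gate, and 20 Trbc2 UMIs. The hepatoma genes Afp, Alb, Ttr, Apoa1 and Apoa2 summed to between 820.4 and 1109 counts per 1000000 UMIs (CPM) in the 5 immune classes, which the gate caps, against 10970.3 CPM in hepatoma cells.

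The 5 genes together took 9378 CPM in NK cells, 3350.3 CPM in CD8 T cells, 2414 CPM in regulatory T cells and 1073 CPM in CD4 T cells. A single regulatory T cell held 317 of the 562 UMIs of its class, and without it the sum was 1145 CPM (1006 to 1297). Without the cell with the most of these UMIs the sum was 8489 CPM in NK, 3230 CPM in CD8 T and 896.8 CPM in CD4 T cells. Myeloid and hepatoma cells each had about 18 CPM (18.4 and 18.3). In CD8 T cells the sum was made of Gzmb (35.2%), Nkg7 (31.0%), Prf1 (25.6%), Gzma (5.93%) and Gzmk (2.26%). In NK cells Gzma alone was 56.6%. In regulatory T cells Gzmb was 74.0% and Prf1 3.02%, and without that 1 cell Gzmb was 42.9% (36.6 to 49.3), Prf1 6.53% (3.78 to 10.4) and Nkg7, the most abundant then, 50.6%. In CD4 T cells Nkg7 was 58.8%. UMIs count transcript ends, so gene length does not enter these shares, but capture can differ between genes.

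**Figure D1:**
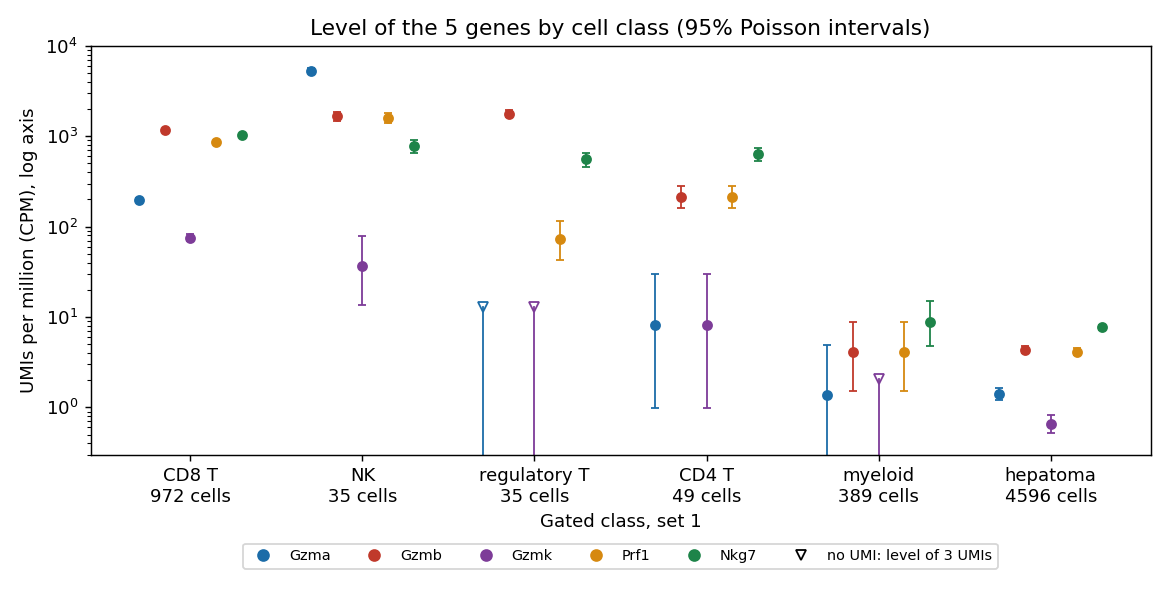
Level of Gzma, Gzmb, Gzmk, Prf1 and Nkg7 in 6 gated classes of set 1, in CPM on a log axis. Points are summed UMIs over summed cell totals, bars are 95% Poisson intervals cut off at the axis floor, and open triangles mark the level of 3 UMIs where none was counted. Gzma is highest in NK cells (5305 CPM), Gzmb is at 1179 CPM in CD8 T cells, 1659 CPM in NK cells and 1787 CPM in regulatory T cells, where 1 cell holds 311 of the 416 UMIs and the level without it is 490.5 CPM, and all 5 lie under 10 CPM in myeloid and hepatoma cells.

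Granzyme A set NK cells apart. Its level was 5305 CPM (interval 4958 to 5670) in NK cells and 198.6 CPM (188.2 to 209.4) in CD8 T cells, a ratio of 26.7 (24.5 to 29.1). It was found in 24 of 35 NK cells, and in the same 68.6% (50.7 to 83.1) after each cell had been thinned to 1000 UMIs. After thinning, 6.38% (4.93 to 8.10) of CD8 T cells and 0.131% of hepatoma cells had a Gzma UMI. Without the limit on hepatoma RNA, which enlarges the NK class to 58 cells, the ratio was 13.1 (12.1 to 14.3). The NK cell with the most Gzma held 165 of the 870 UMIs, and without it and the CD8 T cell with the most the ratio was 24.1. Across all genes, 25.3% of the 1307 tested were at least 2-fold higher in NK than in CD8 T cells and 33.7% at least 2-fold lower. Of the 5 members, Gzma was in the first class and Gzmk in the second. In CD4 T cells Gzma had 2 UMIs, a ratio to CD8 T cells of 0.0412 (0.00499 to 0.149). In regulatory T cells it had none: 0 of 35 cells, which allows a share of up to 8.57% of cells with a Gzma UMI by the limit of 3 counts (a limit on cells with a UMI, not on cells that express the gene), and at most 0.0649 times the CD8 T level if 3 UMIs are taken as the limit.

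Granzyme K, the neighbour of Gzma on chromosome 13, followed another order. It was the lowest of the 5 in CD8 T cells, at 75.7 CPM (69.4 to 82.5), and the thinned share was 7.92% of CD8 T cells against 0.0435% of hepatoma cells. Only 6 Gzmk UMIs were counted in NK cells, in 3 cells, for 36.6 CPM (13.4 to 79.6). The NK to CD8 T ratio of 0.483 (0.176 to 1.06) does not exclude equal levels. CD4 T cells had 2 UMIs in 1 cell. Regulatory T cells had none, and at most 0.170 times the CD8 T level.

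Granzyme B and perforin, which act together in killing a target cell, were both high in CD8 T and NK cells. Gzmb was at 1179 CPM (1153 to 1205) in CD8 T cells and 1659 CPM (1467 to 1868) in NK cells, and Prf1 at 858.1 CPM (836.4 to 880.3) and 1604 CPM (1416 to 1810). The NK to CD8 T ratios were 1.41 (1.24 to 1.59) for Gzmb and 1.87 (1.65 to 2.12) for Prf1. A single NK cell of 13086 UMIs held 98 of the 272 Gzmb UMIs and 125 of the 263 Prf1 UMIs. Without it NK cells had 1153 CPM (988.0 to 1338) of Gzmb and 914.5 CPM (768.3 to 1080.4) of Prf1, and both intervals hold the CD8 T level. Without the hepatoma limit both ratios turned below 1, to 0.699 for Gzmb and 0.930 for Prf1. The order of the NK and CD8 T levels of these 2 genes in set 1 thus hung on 1 cell and on the gate.

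Regulatory T cells had Gzmb with little perforin. Prf1 was at 73.0 CPM (42.5 to 117) in regulatory T cells, from 17 UMIs in 9 cells, which is 0.0851 times (0.0495 to 0.136) the CD8 T level. The ratio was 0.162 as a mean over cells, 0.224 (0.0819 to 0.490) with each cell thinned to 1000 UMIs, and 0.144 (0.0716 to 0.258) in cells of 2000 to 10000 UMIs. Gzmb was present in 25 of 35 regulatory T cells, and in 45.7% (28.8 to 63.4) after thinning, beside 40.6% (37.5 to 43.8) of CD8 T cells. Its pooled level of 1787 CPM (1619 to 1967) rested on 1 cell of 18760 UMIs that held 311 of the 416 Gzmb UMIs. That cell, singled out after its values were seen, also had 5 Foxp3, 110 Ctla4, 15 Klrg1 and 2 Cd4 UMIs, 1 Prf1 UMI and 0 Cd8a and Cd8b1 UMIs. Without it the regulatory T level was 490.5 CPM (401.2 to 593.8). The ratio to CD8 T cells was then 0.454 (0.371 to 0.550), leaving out the highest cell of both classes, against 1.52 (1.37 to 1.67) with them. In regulatory T cells 4.09 Prf1 UMIs (2.36 to 6.62) were counted per 100 Gzmb UMIs, against 72.8 (70.4 to 75.3) in CD8 T cells and 96.7 in NK cells. Without the cell of each class with the most UMIs of the 5 genes, the values were 15.2 (8.40 to 25.9) in regulatory T, 77.7 in CD8 T and 79.3 (63.0 to 99.7) in NK cells.

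CD4 T cells without Foxp3 had less of both. Gzmb and Prf1 each had 52 UMIs, or 212.9 CPM (159.0 to 279.2), at 0.181 times (0.135 to 0.237) and 0.248 times (0.185 to 0.326) the CD8 T level. Both rested on few cells: 1 cell held 27 of the Gzmb UMIs and another 35 of the Prf1 UMIs. Without the highest cell of each class the ratios were 0.0991 for Gzmb and 0.0875 (0.0509 to 0.140) for Prf1, and the Gzmb ratio was 0.357 without the hepatoma limit. Regulatory T cells had 8.39 times (6.28 to 11.4) the Gzmb of CD4 T cells, and 4.58 times (2.94 to 7.40) without the highest cell of each. With 2 UMIs of the gating gene required, that ratio was 32.2, in 17 and 32 cells. Of the members, 4 were at least 2-fold lower in CD4 T than in CD8 T cells, beside 33.1% of all 1300 genes tested, and none was higher (11% of genes). In regulatory T cells 3 were lower, beside 30.2% of 1306 genes, and none higher (13.2%). Between regulatory T and CD4 T cells, with 3 members tested, Gzmb was higher (18% of 633 genes) and Prf1 lower (13.6%). The Prf1 ratio of 0.343 (0.186 to 0.603) rested on the 1 CD4 T cell with 35 UMIs: without the highest cell of each class it was 0.803 (0.359 to 1.76), which does not exclude equal levels.

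Nkg7 was the most evenly spread of the 5. It was at 1039 CPM (1015 to 1064) in CD8 T cells, 774.4 CPM (645.6 to 921.4) in NK cells, 630.6 CPM (534.9 to 738.4) in CD4 T cells and 554.1 CPM (462.6 to 658.3) in regulatory T cells. In this order the intervals of NK and CD4 T cells overlap, as do those of CD4 T and regulatory T cells. No single cell held more than 14.7% of the UMIs in any of these 4 classes. The NK to CD8 T ratio of 0.745 (0.620 to 0.888) turned to 1.22 (0.891 to 1.65) with each cell thinned to 1000 UMIs, and was 0.364 without the hepatoma limit. A UMI of Nkg7 was found in 93.4% of CD8 T cells, and in 61.6% after thinning, beside 0.783% of hepatoma cells.

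Myeloid cells had few UMIs of these genes. Gzma had 2 UMIs, Gzmb 6, Prf1 6, Nkg7 13 and Gzmk 0 in the 389 cells. The levels of 1.36, 4.09, 4.09 and 8.87 CPM stand beside 1.41, 4.37, 4.12 and 7.73 CPM in hepatoma cells, with intervals that overlap for each gene. Of the 27 UMIs in myeloid cells 22.2% (8.62 to 42.3) were Gzmb and 22.2% Prf1, beside 23.9% and 22.5% in hepatoma cells. The myeloid gate leaves out cells with a T or NK UMI and the 2 classes differ in depth, and the source of these UMIs was not tested. The CD8 T levels were 114 to 269.7 times those of hepatoma cells, and all 5 genes were at least 2-fold higher, as were 24% of the 1903 genes tested.

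Within CD8 T cells, 547 were cycling (at least 3 UMIs over 12 cell-cycle genes) and 425 were not, with median depths of 7734 and 3475 UMIs. Nkg7 was lower in cycling cells, at 946.2 CPM (920.0 to 973.0) against 1327 CPM (1273 to 1383), a ratio of 0.713 (0.678 to 0.750). Gzma was lower too, at 166.2 against 298.7 CPM, a ratio of 0.556 (0.498 to 0.622) that became 1.10 (0.958 to 1.26) with gates on thinned cells. Gzmb was 1.37 times (1.30 to 1.45) and Prf1 1.13 times (1.06 to 1.20) as high in cycling cells. For both the direction hung on the gates, which find cycling more often in deep cells. With gates on thinned cells the Gzmb ratio was 0.764 and the Prf1 ratio 0.743, without the hepatoma limit they were 0.800 and 0.672, and between 2000 and 10000 UMIs they were 1.01 and 0.896. When CD8 T cells were ranked by depth, the deepest 243, from 8721 UMIs up, were 92.6% cycling and had 1375 CPM of Gzmb, against 854.2 CPM in the shallowest 243, of which 24.3% were cycling. No member differed by 2-fold, beside 16.4% of 1289 genes higher and 5.28% lower.

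Havcr2 encodes Tim-3, an inhibitory receptor of activated and chronically stimulated T cells. Among noncycling CD8 T cells, the 201 with a Havcr2 UMI had 1272 CPM (1200.1 to 1347) of Gzmb, against 490.4 CPM (441.8 to 543.0) in the 224 without, a ratio of 2.59 (2.31 to 2.92). Prf1 was at 1093 CPM (1027 to 1163) against 401.9 CPM (357.9 to 449.7), a ratio of 2.72 (2.39 to 3.10). These 2 members were at least 2-fold higher, beside 6.08% of the 905 genes tested. Nkg7 was at 1.19 times (1.09 to 1.30), so the granule genes did not move as 1 block. Gzma was at 1.07 times (0.891 to 1.28), but this ratio rested on few cells. A single Havcr2- cell held 97 of the 218 Gzma UMIs, and without it the Havcr2- level was 160.9 CPM (133.5 to 192.3). The Havcr2+ level was 307.4 CPM, with 72 of the 284 UMIs in 1 cell. The median depth was 4146 UMIs with Havcr2 and 2795.5 without. With gates on thinned cells the Gzmb and Prf1 ratios were 1.85 and 2.18. Cycling cells showed the same split, with ratios of 3.30 (3.04 to 3.58) for Gzmb and 2.97 (2.70 to 3.26) for Prf1, beside 3.74% of 1202 genes at least 2-fold higher. There Gzma was lower with Havcr2, at 0.625 times (0.544 to 0.720).

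**Figure D2:**
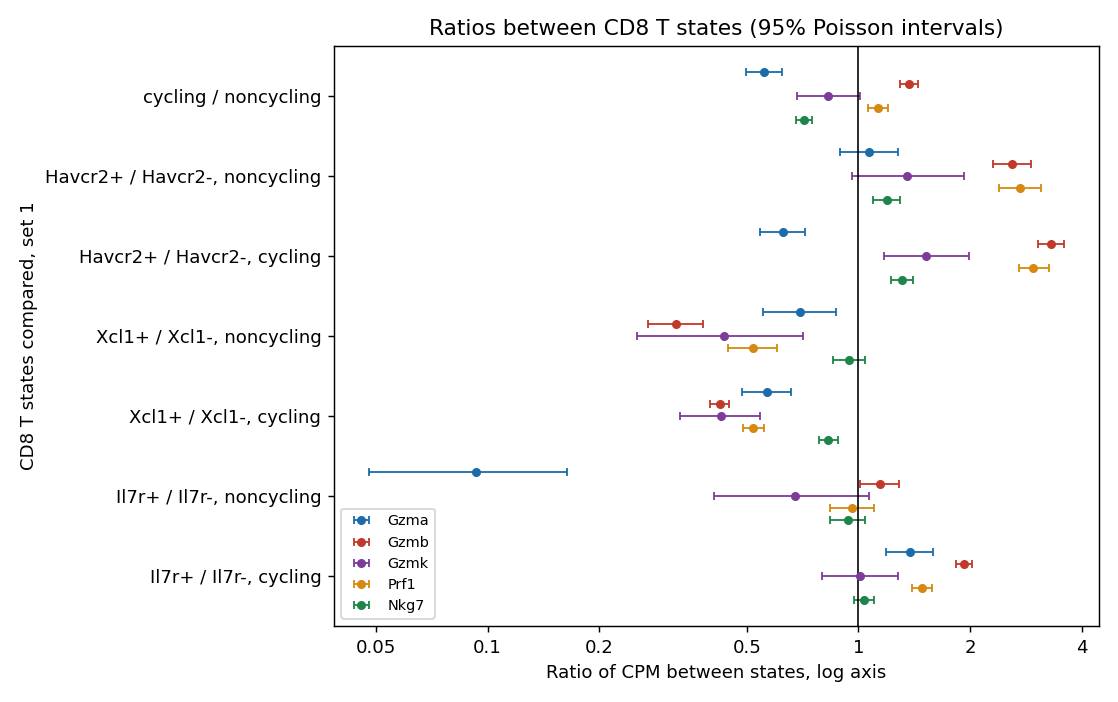
Ratio of CPM between CD8 T states of set 1, on a log axis, with 95% Poisson intervals for counting error. Gzmb and Prf1 lie at 2.59 and 2.72 for Havcr2+ over Havcr2- noncycling cells and at 0.322 and 0.519 for Xcl1+ over Xcl1-, while Nkg7 stays between 0.713 and 1.31 in all 7 comparisons.

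Xcl1 encodes a chemokine that draws cross-presenting dendritic cells. Here the split ran the other way. The 110 noncycling cells with an Xcl1 UMI had 358.3 CPM (303.9 to 419.5) of Gzmb, against 1113 CPM (1055 to 1173) in the 315 without, a ratio of 0.322 (0.271 to 0.380). Prf1 was at 0.519 times (0.444 to 0.604) and Gzmk at 0.435 times (0.254 to 0.708), whereas Nkg7 was at 0.943 times (0.855 to 1.04). Gzmb and Gzmk were at least 2-fold lower, beside 12.3% of 905 genes (9.82% of 1202 in cycling cells, where it was again these 2), and the median depths were close, at 3504 and 3475 UMIs. In cycling cells the ratios were 0.423 (0.399 to 0.449) for Gzmb, 0.426 (0.330 to 0.544) for Gzmk and 0.521 (0.488 to 0.557) for Prf1. Among noncycling cells without Havcr2, Gzmb was again lower with Xcl1, at 0.420 times (0.322 to 0.543), while Prf1 was at 0.886 times (0.694 to 1.13). Among those with Havcr2 both were lower with Xcl1, in 32 cells against 169. Gzmb was at 0.390 times (0.306 to 0.491) and Prf1 at 0.550 times (0.439 to 0.682). All 97 Gzma UMIs of the noncycling Xcl1+ cells were in 1 cell, and the other 109 had none. That cell also held 44.5% of the Gzma of the Havcr2- cells.

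Il7r encodes the interleukin-7 receptor of naive and memory T cells. Among noncycling CD8 T cells the 74 with an Il7r UMI had 12 Gzma UMIs, or 34.3 CPM (17.7 to 59.9), against 368.2 CPM (336.3 to 402.3) in the 351 without. The shares of cells with a Gzma UMI were close, at 6.76% (2.23 to 15.1) with Il7r and 8.55% (5.84 to 12.0) without. Of the 490 Gzma UMIs of the Il7r- cells, 1 cell held 97. The ratio of levels was 0.0932 (0.0478 to 0.164), 0.183 as a mean over cells and 0.198 (0.0630 to 0.474) with cells thinned, and 11.9% of 905 genes were at least 2-fold lower. In cycling cells the ratio of levels was 1.38 (1.19 to 1.59), with 88 of the 283 Gzma UMIs of the Il7r+ cells in 1 cell. There a Gzma UMI was found in 11% (5.62 to 18.8) of Il7r+ and 13.2% (10.2 to 16.7) of Il7r- cells. Gzmb, Prf1 and Nkg7 were at 1.14, 0.961 and 0.935 times in noncycling cells, and Gzmb turned to 0.758 with 2 Il7r UMIs required. A joint split with Havcr2 divided the Il7r+ cells by their Gzmb and Prf1 levels. The 36 cells with Il7r and no Havcr2 had 204.4 CPM (136.9 to 293.6) of Gzmb and 176.2 CPM (114.0 to 260.1) of Prf1. The 38 cells with both had 1578 CPM (1412 to 1759) and 1155 CPM (1013 to 1311). The ratios were 0.130 (0.0854 to 0.190) for Gzmb and 0.153 (0.0968 to 0.231) for Prf1, beside 17.3% of the 475 genes tested at least 2-fold lower. Nkg7 was at 0.789 times (0.644 to 0.963). Median depths were 3294.5 and 5202.5 UMIs, and 1 cell held 13 of the 29 Gzmb UMIs of the cells with Il7r and no Havcr2. The split was not particular to Il7r+ cells. Among noncycling cells without Il7r, those with Havcr2 had 2.13 times (1.87 to 2.42) the Gzmb and 2.37 times (2.06 to 2.73) the Prf1 of those without.

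The members were spread over CD8 T cells in different ways. For each gene, the 98 of 972 cells with the most UMIs held 99.5% of all Gzma UMIs, 62.8% of Gzmb, 61.6% of Gzmk, 54.8% of Prf1 and 30.7% of Nkg7. Gzma was thus present in 105 of 972 cells, at up to 97 UMIs in a cell, with the other 867 at 0. For Gzmb the middle cell was at 406 CPM and the upper quartile was 1341 CPM, and 1 cycling Il7r+ cell held 702 of the 8106 UMIs. That cell was 26.4% of the Gzmb of the cycling Il7r+ cells, whose level was 1956 CPM with it and 1466 CPM without. For Nkg7 the middle cell, at 1049.9 CPM, was close to the pooled level.

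The 105 CD8 T cells with a Gzma UMI were compared with the other 867 on genes that did not choose them. They had 1921 against 1078 CPM of Gzmb and 130.4 against 68.3 CPM of Gzmk. Prf1, at 841.8 against 860.3 CPM, and Nkg7, at 1126 against 1028 CPM, were nearly alike. Ccl5, a chemokine of effector and memory T cells, was at 1960.2 against 1058 CPM. The 7 genes of the NK list summed to 860.1 against 759.3 CPM, of which Klre1 and Klrk1 made most. Ncr1 was at 2.44 against 0.330 CPM and Klra4 at 11.0 against 0.991 CPM. Klrb1c was at 13.4 against 1.49 CPM and Klra8 at 0 against 0.165 CPM. In this order, these 4 genes had only 4, 15, 20 and 1 UMIs over all CD8 T cells. The 46 cells with 1 or 2 Gzma UMIs had no UMI of any of the 4. Klre1 was at 454.4 against 372.6 CPM, Klrk1 at 336.2 against 340.1 CPM and Eomes at 42.6 against 43.6 CPM. The Gzma cells were deeper, with a median of 6666 against 5269 UMIs, and 66.7% against 55.0% were cycling. The part of depth in these values was not tested.

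For co-expression per cell, each cell was thinned to 1000 UMIs and the members with a UMI were counted. Of 972 CD8 T cells, 165 had none of the 5, 306 had 1, 298 had 2, 172 had 3, 30 had 4 and 1 had all 5. At least 3 were found in 203 cells, or 20.9% (18.4 to 23.6), where independent genes at the same shares would give 153.6, and none in 165 where they would give 110.4. Cells with many and cells with none were both more frequent than under independence. The share with at least 3 was 51.4% (34.0 to 68.6) in NK cells, 24.9% (19.1 to 31.4) in Havcr2+ and 11.6% (7.72 to 16.5) in Havcr2- noncycling cells, and 3.64% (1.00 to 9.05) in Xcl1+ cells. It was 1 of 35 regulatory T cells, 1 of 49 CD4 T cells and 0 of 4596 hepatoma cells, which allows a share of up to 0.0653% of cells with UMIs of 3 of the genes. With gates on thinned cells the Havcr2+ and Havcr2- shares were 25.5% and 20.6%, and the Xcl1+ share was 3.17%.

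**Figure D3:**
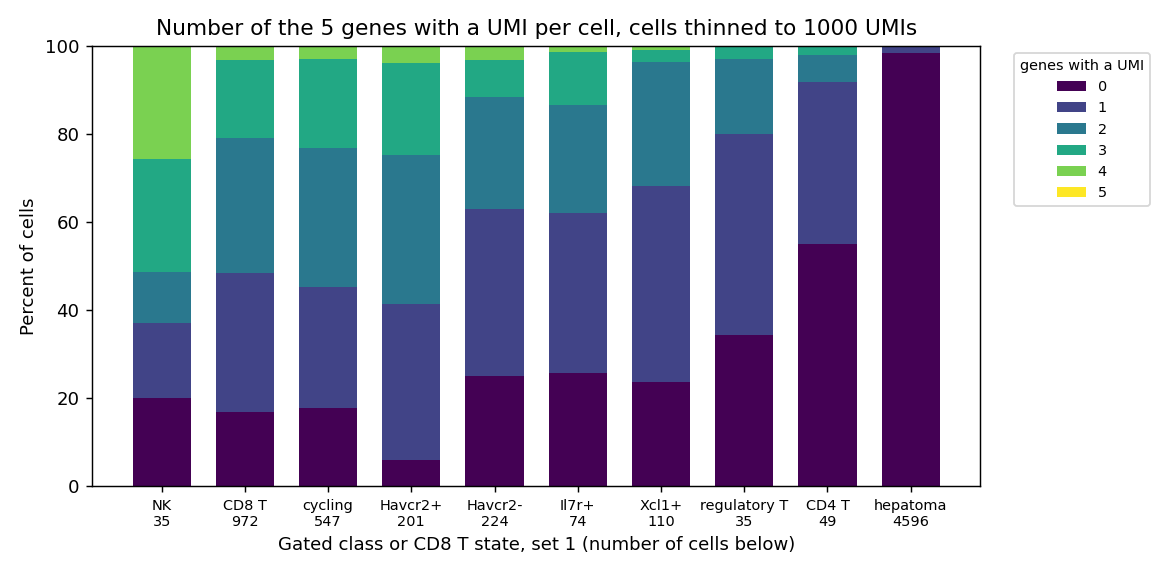
Percent of cells with a UMI of 0 to 5 of the genes, after thinning each cell to 1000 UMIs, in gated classes and CD8 T states of set 1, with the number of cells under each bar. Cells with at least 3 of the genes make up 51.4% of NK cells, 20.9% of CD8 T cells and 2.86% of regulatory T cells, and 98.3% of hepatoma cells have none.

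Among the 10 pairs in CD8 T cells, Gzmb and Prf1 were found together in 215 cells against 166.6 under independence, a ratio of 1.29 (1.12 to 1.47). Prf1 was present in 54.4% (49.4 to 59.4) of cells with Gzmb and in 33.8% (29.9 to 37.8) of those without. Within Havcr2+ noncycling cells the pair was at 1.04 times independence, and within Havcr2- cells at 1.63 times. Gzma went with Gzmb in 43 cells against 25.2, a ratio of 1.71 (1.24 to 2.30), and with its neighbour Gzmk in 11 against 4.91, a ratio of 2.24 (1.12 to 4.01). Gzma and Prf1 were at 1.19 (0.805 to 1.68). Gzmk, with a UMI in 77 thinned cells, was at 1.02 (0.699 to 1.44) with Gzmb and 0.831 (0.548 to 1.21) with Prf1. Both intervals hold independence, and that of Gzmb also holds the value of the Gzmb and Prf1 pair. Without thinning, Gzmk was at 90.7 CPM in the 621 CD8 T cells with a Gzmb UMI and 36.2 CPM in the 351 without. Their median depths were 6374 and 3693 UMIs. In NK cells Prf1 was found in 18 of the 24 cells with Gzma and in 1 of the 11 without. Of the 16 regulatory T cells with Gzmb, 1 had Prf1.

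A list of 37 other genes of granule killing gave a wider view, of which 23 were in the table: further granzymes, granule proteins, granzyme inhibitors, cytokines and regulators. Of all 1307 genes tested in NK over CD8 T cells, 25.3% were at least 2-fold higher and 33.7% at least 2-fold lower. Of the 23, 9 were higher and 4 lower, with a median log2 ratio of 0.42 beside -0.14 over all genes. Of these, Eomes belongs to the NK gate. The highest were the granzymes Gzmc (6110 CPM), Gzmg (2860 CPM), Gzmf (2744 CPM) and Gzmd (2726 CPM), but they rested on single cells. The NK cell that led Gzmb and Prf1 held 735 of the 1002 Gzmc UMIs, and 1 cell each held 444 of 447 Gzmd UMIs and all 450 Gzmf, all 469 Gzmg and all 135 Gzme UMIs. These granzymes are close paralogs, and the counting may split reads between them. Without its top cell Gzmc was at 1769 CPM in NK cells, 15.5 times (13.5 to 17.9) the CD8 T level. Even with that cell, only 6 of 35 NK cells had a Gzmc UMI, so this level too rested on few cells. Ccl5 was at 4348 CPM in 27 of 35 NK cells, 3.73 times (3.45 to 4.03) the CD8 T level.

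In regulatory T over CD8 T cells 16 of the 23 were at least 2-fold lower and 2 higher. Among all 1306 genes tested, the shares were 30.2% and 13.2%. The median log2 ratio of the 23 was -2.38 beside -0.17 over all genes. With the 7 genes at 0 UMIs in 1 class set to their bound, 15 were lower and the median was -1.70. The 2 higher genes were Srgn, the proteoglycan that packs granule contents, at 1611 against 571.7 CPM, and Klrg1, a receptor of differentiated lymphocytes, at 476.8 against 8.87 CPM. Klrg1 was found in 22 of 35 regulatory T cells. Serpinb9, an inhibitor of granzyme B, was at 38.7 CPM in regulatory T cells and 221.6 CPM in CD8 T cells. Klrd1 and Serpinb9b had 0 UMIs in regulatory T cells. In myeloid cells Srgn was at 879.4 CPM and Ctsc, the protease that activates granzymes, at 1235 CPM, above the 171.7 CPM of CD8 T cells.

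In Havcr2+ over Havcr2- noncycling cells, 8 of the 23 were at least 2-fold higher and 1 lower. Of all 905 genes tested, 6.08% were at least 2-fold higher, and more were at least 2-fold lower (counts are given below with the pseudocounts). The median log2 ratio of the 23 was 0.51 beside -0.06 over all genes. Among the 8 higher, the chemokines Ccl3 and Ccl4 were at 689.5 against 296.1 CPM and 1705 against 842.0 CPM. Serpinb9b was at 118 against 41.0 CPM. The other 5, Gzmc, Gzmd, Gzme, Gzmg and Klrg1, had few UMIs in Havcr2- cells and were sparse in the 201 Havcr2+ cells too. There 38 Gzmc UMIs were in 14 cells, 36 Gzmd in 6, 22 Gzme in 7, 15 Klrg1 in 7 and 13 Gzmg in 3. Tnf was the lower gene, at 17.3 against 42.3 CPM. Ifng, at 1.62 times (1.44 to 1.81), was below the 2-fold mark. In Xcl1+ over Xcl1- cells none of the 23 was 2-fold higher and 7 were lower (5 with genes at 0 set to their bound). Of all 905 genes tested, 12.3% were at least 2-fold lower, and fewer were at least 2-fold higher (counts again below). The median of the 23 was -0.27 beside -0.05 over all genes. Ccl5 was at 1666 against 3019 CPM and Ifng at 914.3 against 782.1 CPM.

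The genes most like each member in their pattern over 10 disjoint classes were ranked by Pearson's r of log2 CPM, over 1595 genes. The classes share 1 library, so the values are a description. For Nkg7 they were Cst7 (0.994), a cystatin of cytotoxic granules, Il2rb (0.992), Sh2d2a (0.991), Ctla2a (0.991) and the T-box factor gene Tbx21 (0.990). For Prf1 they were the inhibitor Serpinb9 (0.978), F2r (0.960), Serpinb6b (0.956), the granule cathepsin Ctsw (0.948) and Cd226 (0.945). For Gzmk they were the NK receptor genes Klrd1 (0.970), Klrc1 (0.968) and Klri2 (0.966), then Cd160 (0.918) and Serpinb9b (0.907). For Gzmb they were Gem (0.963), Il2rb (0.953), Ptprcap (0.942), the costimulatory receptor Tnfrsf9 (0.942) and P2ry10 (0.934), and for Gzma Cd7 (0.962), Slc20a1 (0.929), Gzmf (0.898), Klra7 (0.881) and Spry2 (0.878). Gzmf in NK cells comes from a single cell, as given above. Among the members, Gzmb had an r of 0.926 with Nkg7 and 0.904 with Prf1, against 0.562 with Gzma, and Gzma had its highest r with Gzmk (0.815). All members were under 10 CPM in myeloid and hepatoma cells, and r takes in that contrast as well. Gzmk had only 6 UMIs in NK, 2 in CD4 T and 0 in regulatory T and myeloid cells. In regulatory T cells 1 cell held 311 of the 416 Gzmb UMIs.

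Gates of the same kind were then set on the deposited natural log values in all 6 sets, with a value above 0.5 in place of a UMI. They counted genes in place of UMIs, and no cells called as doublets were removed. The mean Gzma value of NK cells was 2.53 at the lowest set and 4.08 at the highest, against 0.106 to 0.250 in CD8 T cells. The difference was above 0 in 6 of 6 sets, from 2.34 to 3.91 with a median of 3.21, and the sets' ranges do not overlap. Prf1 was lower in regulatory T than in CD8 T cells in 6 of 6 sets, from -1.22 to -1.01. Gzmb in regulatory T cells was above CD8 T cells in 2 sets and below in 4, from -0.345 to 0.275, and above CD4 T cells in 6 of 6, from 0.484 to 1.37. The classes held 22 to 95 NK, 33 to 71 regulatory T and 975 to 2495 CD8 T cells per set. NK cells had higher Gzmb than CD8 T cells in 6 of 6 sets, by 0.172 to 0.633, and higher Prf1 in 5 of 6, from -0.231 to 0.844. The hepatoma limit, without which both ratios turned in set 1, was kept in all 6 sets.

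Between CD8 T states, Havcr2+ cells had higher Gzmb (0.660 to 0.956) and Prf1 (0.692 to 0.895) in 6 of 6 sets, and higher Nkg7 in 6 of 6 (0.125 to 0.443). Xcl1+ cells had lower Gzmb (-1.01 to -0.661) and Prf1 (-0.560 to -0.254) in 6 of 6 sets, with Nkg7 higher in 3 and lower in 3 (lower in 6 of 6, from -0.208 to -0.0224, with 1 in place of 0.5 as the limit for a gene). Cycling cells had higher Gzmb (0.279 to 0.518) and Prf1 (0.119 to 0.283) and lower Nkg7 (-0.336 to -0.132) in 6 of 6. At a limit of 1, Prf1 was higher in cycling cells in 4 of 6 sets, from -0.0288 to 0.104, and Gzmb and Nkg7 kept their direction in 6 of 6. These gates kept the hepatoma limit and used cells that were not thinned. In set 1 the direction of Gzmb and Prf1 turned when either was changed, and this was not tested in the other sets. The low Gzma of Il7r+ noncycling cells in set 1 was not shared by all sets: it was lower in 4 and higher in 2, from -0.185 to 0.0921. Nothing shows that the 6 sets are separate tumours, set 1 is among them, and no test was made over them.

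**Figure D4:**
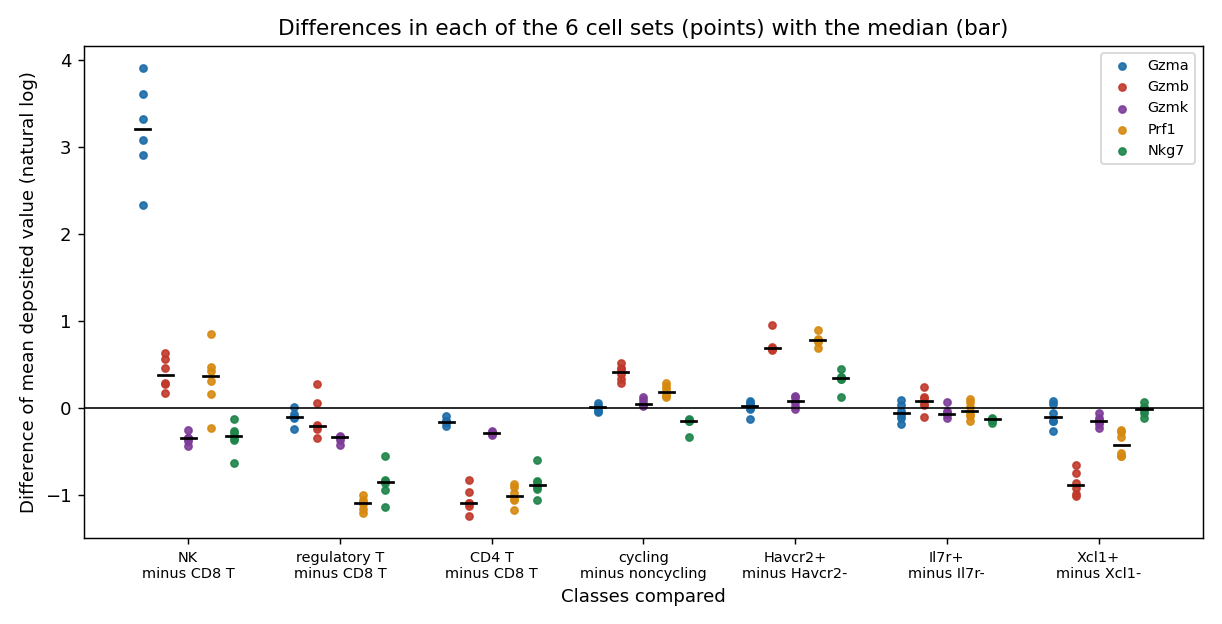
Difference of the mean deposited natural log value between gated classes or CD8 T states, 1 point for each of the 6 cell sets and gene, with the median as a bar. Gzma in NK minus CD8 T cells lies between 2.34 and 3.91, Gzmb is above 0 for Havcr2+ and below 0 for Xcl1+ cells in all 6 sets, and Gzmb in regulatory T minus CD8 T cells falls on both sides of 0.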

How the data were processed

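Single-cell 3′ UMI data of tumours were taken from 1 deposited table of 2000 genes and 53528 cells, in natural log values. Per the labels' protocols, UMIs were counted with PISA after alignment with STAR (2.7.2b) to GRCh38, a human build, and cells were chosen with barcodeRanks of DropletUtils. The submitters' processing notes list both GRCh38 and mm10, and the symbols are mouse symbols. All 53528 columns belong to no known sample, so no group was compared.

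The deposited natural log values of set 1 are ln(1 + UMIs per 10000), from which totals (tolerance 1e-06) and counts were recovered: 100% of cells, and 100% of nonzero values whole within 0.01. The 2000 genes take 15.0% of these UMIs. Sets 2 to 6 hold values below 0, from a step that no label records, so their depth is unknown.

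A T cell had at least 2 T-list UMIs, more than its myeloid-list UMIs, and no B-list UMI. CD8 T cells then had a Cd8a or Cd8b1 UMI and no Cd4 or Foxp3, regulatory T cells a Foxp3 UMI and no Cd8, and CD4 T cells a Cd4 UMI and neither. NK cells had at least 2 UMIs from 2 or more of 7 NK genes and more NK-list than myeloid-list UMIs and no Cd3 or Cd8 UMI, and any that passed a CD4 or regulatory T gate were removed. Myeloid cells had at least 5 UMIs of their list (10 of 13 genes in the table) and no T or NK UMI. Hepatoma cells were at or above the median share of hepatoma-list UMIs, with at most 0.1% of UMIs from the T, NK and myeloid lists. Immune cells whose hepatoma-list share was over 0.181% of UMIs, and the 91 cells (0.971%) called by Scrublet (scanpy 1.11.5, expected rate 6%), were left out. On log values, at least 2 T-list, 3 myeloid and 2 cycling genes above 0.5 stood for the UMI sums, and Scrublet calls were not removed.

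CPM is summed UMIs over summed totals, with exact Poisson intervals. Ratios have exact conditional Poisson intervals, shares exact Clopper-Pearson intervals, all at 95% and for counting error only. Gene folds used a pseudocount of 1 CPM, at least 10 UMIs and 2-fold, and were tested on simulated data. Zero counts were read against 3 UMIs. Genes named are the 5, pathway genes with at least 50 CD8 T UMIs, and each member's 5 nearest of those with at least 50 UMIs and no part in a gate. Members and lists were chosen with earlier results of these data known. Alternatives changed the summing, thinning, gates, doublets, hepatoma limit, depth, pseudocount and log value limit. Those without each class's highest cell, by 1 gene or by the 5 together, were added after the data were seen.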

Additional observations from a re-analysis of the deposited data

How the results depend on the processing

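Of 71 ratios of the main comparisons recomputed under 8 alternatives, 38 stayed inside their 95% counting interval, 31 moved out of it and 2 turned direction. Of 210 other ratios, 134 stayed, 63 moved and 13 turned. The causes were not tested. Without the hepatoma limit, the NK over CD8 T ratio was 13.1 for Gzma and turned to 0.699 for Gzmb and 0.930 for Prf1, the CD4 T over CD8 T ratio of Gzmb was 0.357, and regulatory T over CD4 T was 5.47. Cycling over noncycling turned to 0.800 for Gzmb and 0.672 for Prf1, and Havcr2+ over Havcr2- was 3.24 for Gzmb and 3.35 for Prf1. With gates on cells thinned to 1000 UMIs, NK over CD8 T was 37.3 for Gzma and turned to 1.05 for Nkg7. Gzmb was 0.0978 for CD4 T over CD8 T and 47.2 for regulatory T over CD4 T, from 7 regulatory T cells. Cycling over noncycling turned to 1.10 for Gzma, 0.764 for Gzmb and 0.743 for Prf1, and Havcr2+ over Havcr2- was 1.85 for Gzmb and 2.18 for Prf1.

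With levels thinned to 1000 UMIs, NK over CD8 T was 33.3 for Gzma and turned to 1.22 for Nkg7. Prf1 was 0.224 for regulatory T over CD8 T and turned to 1.05 over CD4 T, Gzmb was 0.103 for CD4 T over CD8 T and 11.8 for regulatory T over CD4 T, and Gzma was 0.198 for Il7r+ over Il7r-. In cells of 2000 to 10000 UMIs, NK over CD8 T was 29.5 for Gzma. Regulatory T over CD8 T turned to 0.775 for Gzmb and was 0.144 for Prf1, and over CD4 T it was 5.83 for Gzmb and turned to 1.20 for Prf1. CD4 T over CD8 T was 0.133 for Gzmb, and cycling over noncycling was 1.01 for Gzmb and turned to 0.896 for Prf1. As means over cells, the ratios were 32.0 for Gzma in NK over CD8 T, 0.162 for Prf1 in regulatory T over CD8 T, 1.26 for Gzmb in cycling over noncycling and 0.183 for Gzma in Il7r+ over Il7r-. With 2 UMIs of a gating gene, Gzmb was 0.0668 for CD4 T over CD8 T, 32.2 for regulatory T over CD4 T and turned to 0.758 for Il7r+ over Il7r-, and Prf1 was 3.33 for Havcr2+ over Havcr2-. Without the highest cell of each class, NK over CD8 T was 24.1 for Gzma. Gzmb turned to 0.454 for regulatory T over CD8 T and was 4.58 over CD4 T, 0.0991 for CD4 T over CD8 T and 0.260 for Xcl1+ over Xcl1-. Prf1 was 0.803 for regulatory T over CD4 T and 0.0875 for CD4 T over CD8 T.

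At a pseudocount of 10 CPM in place of 1, fewer genes differed by 2-fold: 198 and 168 in place of 331 higher and 440 lower for NK over CD8 T, 98 and 91 in place of 172 and 394 for regulatory T over CD8 T, and 83 and 106 in place of 143 and 430 for CD4 T over CD8 T. The counts were 131 and 7 in place of 212 and 68 for cycling, 20 and 26 in place of 55 and 104 for Havcr2+, 27 and 31 in place of 61 and 108 for Il7r+, and 22 and 44 in place of 51 and 111 for Xcl1+. With a log value limit of 1 in place of 0.5, Prf1 was higher in cycling cells in 4 in place of 6 sets, and Nkg7 lower in Xcl1+ cells in 6 in place of 3 and lower in NK than in CD8 T cells in 5 in place of 6. In Il7r+ cells Gzmb was higher in 2 in place of 5, Gzmk lower in 6 in place of 5 and Prf1 lower in 6 in place of 3. In regulatory T against CD4 T cells, Prf1 was lower in 5 in place of 6 and Nkg7 higher in 3 in place of 4. No paired analysis was possible because the cells cannot be tied to samples. The small classes of 35 regulatory T, 49 CD4 T and 35 NK cells limit the precision of their values. Without the cell with the most UMIs of the 5 genes, an alternative added after the data were seen, their sum was 1145 CPM in regulatory T cells.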
